A study of Mus musculus with 20 samples.

Results

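Expression of 7 genes of thyroid hormone action was followed in fetal mouse liver: the nuclear receptors Thra and Thrb, the deiodinases Dio1 and Dio3, the plasma carrier Ttr, the corepressor Ncor1 and the hormone-responsive gene Thrsp. They were taken by name from the 26830 genes that had at least 1 count in some fetus. All 7 had counts, and 5 of them were abundant enough to be among the 17573 genes tested, the exceptions being Dio1 and Dio3. Polyadenylated RNA was sequenced from the right lobe of the liver in 20 male mouse fetuses (CD-1 IGS, an outbred strain) at embryonic day 18.5, the last day or so before birth. Of these, 10 came from dams under maternal nutrient restriction (MNR) and 10 from control dams, with 2 littermates from each of 5 litters (A to E) per group. The sources used here do not give the degree or timing of the restriction, no allele or drug distinguishes the groups, and an MNR and a control litter with the same letter had different dams.

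Thyroid hormone acts mainly through receptors that sit on DNA, usually paired with a retinoid X receptor, and that repress target genes through NCoR corepressors until the hormone triiodothyronine (T3) binds and coactivators replace them. The prohormone thyroxine (T4) is carried in plasma by proteins that include transthyretin, the product of Ttr, which the liver secretes. Deiodinases set the hormone level inside a cell: those encoded by Dio1 and Dio2 can make T3 from T4, and the enzyme encoded by Dio3 inactivates both hormones. In the liver, thyroid hormone is known for its control of lipid synthesis and cholesterol handling, and Thrsp (Spot 14) is one of its classical lipogenic targets.

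Depth was 16703824 to 28016953 counts per MNR fetus and 14925778 to 27848100 per control fetus. Since it was the dam that was restricted, counts of littermates were summed, and 5 MNR litters were set against 5 control litters in edgeR (quasi-likelihood F test). P-values were adjusted by Benjamini and Hochberg's method across every tested gene, and the threshold was 0.05. Over all genes 117 passed, 73 of them higher and 44 lower in MNR litters (with upper-quartile scaling 68 of 178 were higher). Levels are given as library-scaled read counts (CPM, TMM scaling), as mean ± SD over 5 litters per group, and a fold change is MNR over control. The labels give no batch or date, and the p-values measure the spread between these litters. Summed hepatocyte markers were 122818 to 141820 CPM in MNR litters and 120586 to 142442 CPM in control litters, with 6 of the 7 matched markers at a positive log2 fold change and none passing. Erythroid markers, abundant in fetal liver as a site of blood formation, summed to 22401 to 30214 CPM in MNR litters and 21687 to 34427 CPM in control litters. Markers of neutrophil precursors summed to 467 to 654 CPM in MNR litters and 410 to 452 CPM in control litters, so these groups did not overlap, and all 5 of these markers had a positive log2 fold change, 4 of them with an unadjusted p under 0.05. In the other lists 0 markers passed, and at an unadjusted p under 0.05 there were 4 of 5 megakaryocyte markers, all higher in MNR litters, and 2 of 4 B precursor and 3 of 5 stellate markers, all lower, where 9.95% of all genes were higher and 9.69% lower. With the erythroid marker level as a covariate, log2 fold changes were 0.15 for Thra, 0.56 for Thrb, -1.34 for Thrsp, -0.20 for Ttr and 0.13 for Ncor1, and 0 of these passed. The part of the neutrophil, megakaryocyte, B precursor and stellate markers in the results was not tested. In such bulk RNA, fewer cells of a type and less RNA per cell cannot be told apart.

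Of the 5 tested genes, 0 passed the threshold, against 0.666% of all genes tested (0.415% higher and 0.25% lower). At an unadjusted p under 0.05 there were 4, with Thra and Ncor1 higher and Thrsp and Ttr lower in MNR litters, against 19.6% of all genes. By DESeq2 2 passed (Thrsp and Ttr, both lower, against 6.62% of all genes), and by limma-voom on single fetuses with the litter as a random effect 1 passed (Ttr, against 6.74%). The 7 genes were chosen with earlier results of these data known, so these counts are a description of them. The individual values follow by role.

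**Figure D1:**
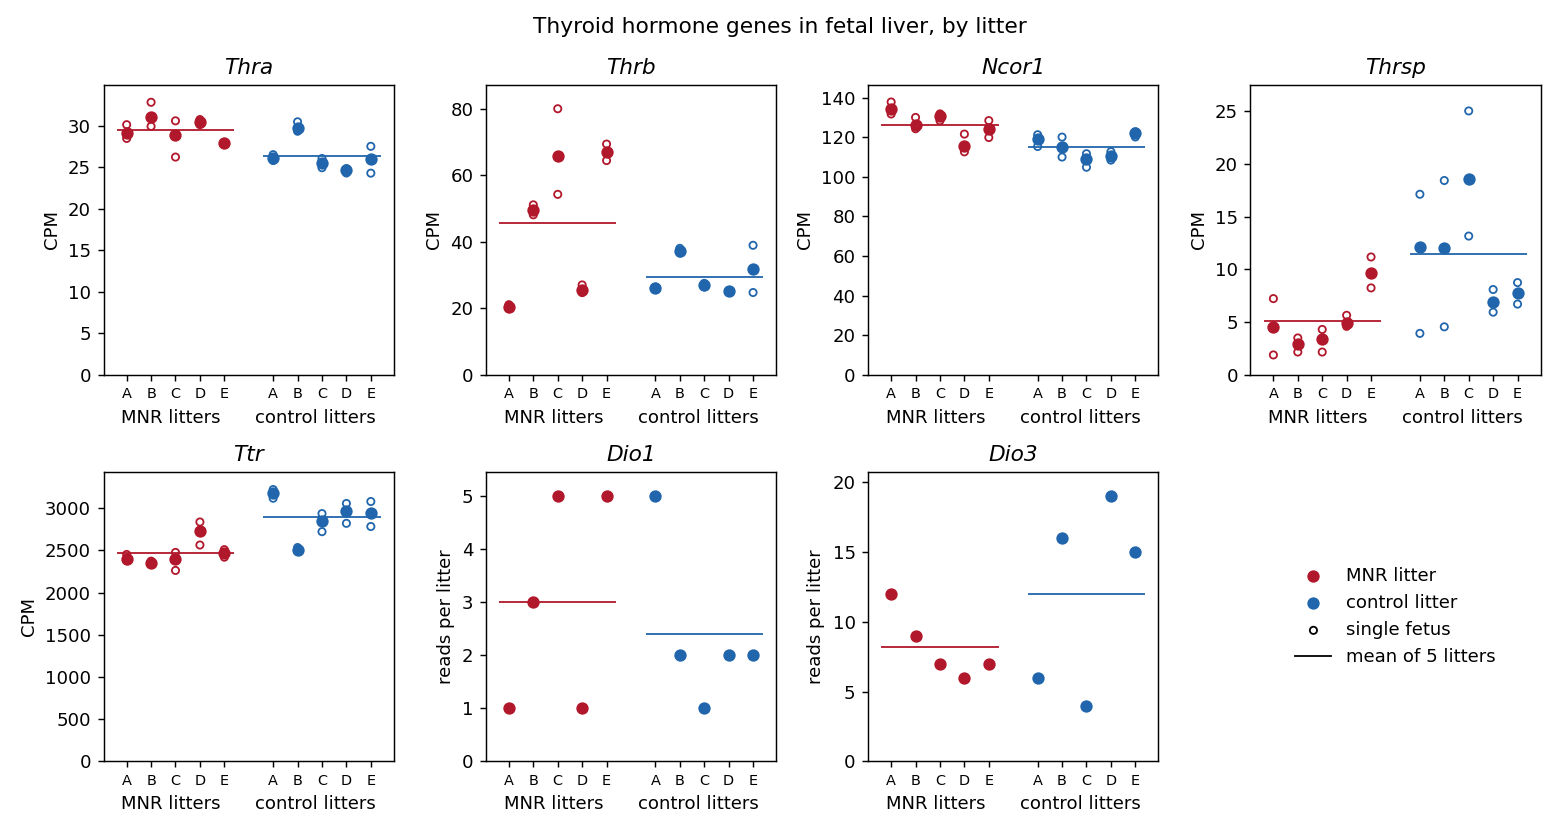
Levels of the 7 genes by litter, MNR litters at the left and control litters at the right of each panel. Filled points are litters, open points single fetuses and lines means of 5 litters, in CPM, except that Dio1 and Dio3 are given as reads per litter. Thrb spreads between 20.3 and 66.8 CPM in MNR litters and between 25.04 and 37.1 CPM in control litters, while Thra and Ncor1 lie within narrow bands.

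Per summed exon length of each gene, the order of the levels over all 10 litters, in length-scaled TPM computed here, was led by Ttr at 4500 ± 505 TPM (SD, n = 10). Ncor1 followed at 19.3 ± 1.58 TPM. Thrsp at 13.3 ± 8.01 TPM, Thra at 12.4 ± 0.95 TPM and Thrb at 11.6 ± 5.39 TPM came next, and on this length these neighbours lay within each other's spread. The summed exons of Thra have 4614 bases and its longest transcript 2452, so its TPM is low on this length. Thrsp has 1 transcript, of 1277 bases. The order of these genes by transcript length was not determined. Dio3 at 0.247 ± 0.122 TPM and Dio1 at 0.0686 ± 0.0437 TPM were the lowest.

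Thra encodes the receptor TRα and, by splicing, the variant TRα2, which does not bind T3. The gene lies on chromosome 11 (98601952 to 98630320, plus strand, NCBIM37, the Ensembl name of mm9). Its level was 29.1, 31.1, 28.8, 30.4 and 27.9 CPM in MNR litters A to E, against 26.1, 29.7, 25.5, 24.6 and 26.0 CPM in control litters A to E. MNR litters B and D lay above every control litter, and the others lay above all control litters but B. The means were 29.5 ± 1.26 CPM in MNR litters and 26.4 ± 1.95 CPM in control litters (log2 fold change 0.16, SE 0.06, edgeR adjusted p = 0.164). Control litter B decided the call: without it the log2 fold change was 0.21 with an edgeR adjusted p of 0.0451, where 4.75% of all genes passed. That litter also held the highest sum of pancreatic acinar markers, 186 CPM, from 1 of its fetuses. Without the 3 fetuses above 100 CPM of these markers the log2 fold change of Thra was 0.16 (edgeR adjusted p = 0.161).

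The 3′ end of Thra overlaps the 3′ end of Nr1d1, which encodes the circadian repressor REV-ERBα and is read from the opposite strand. The exons share 263 bases, 197 of which code for protein in both genes. That shared coding stretch, chr11:98629537-98629733, is printed on the plus strand of NCBIM37 because a read from it can belong to either gene unless strand is used in counting, and the sources used here do not say whether it was.

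Thra/Nr1d1 shared coding stretch: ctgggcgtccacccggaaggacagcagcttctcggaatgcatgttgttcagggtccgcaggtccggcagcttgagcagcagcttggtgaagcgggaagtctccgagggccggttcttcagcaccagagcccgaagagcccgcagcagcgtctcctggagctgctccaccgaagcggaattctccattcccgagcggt

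Nr1d1 itself rose in MNR litters, at 9.16, 9.17, 9.39, 4.40 and 6.82 CPM in MNR litters A to E, against 1.41, 2.15, 1.58, 0.774 and 1.07 CPM in control litters A to E. The groups did not overlap (4.5% of all tested genes have groups that do not overlap), and the difference on the log2 scale was 2.49 (SE 0.27, edgeR adjusted p = 0.018). Leaving out MNR litter B or E, or control A, C or E, ended the call, with edgeR adjusted p-values of 0.0509 to 0.0687 and log2 fold changes of 2.41 to 2.54. In each of these fits, and with fetus 1 of each litter alone, 0 of all genes passed. With fetus 1 of each litter alone the adjusted p was 0.215 at a log2 fold change of 2.36, and with fetus 2 alone it was 0.00072 at 2.65.

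The transcripts of Thra were examined one by one for this reason. Transcript Thra-001, whose last exon is the TRα2 end and holds all 263 overlapping bases, was at 9.85 ± 0.54 CPM in MNR litters and 8.81 ± 0.90 CPM in control litters (log2 fold change 0.16, SE 0.08, edgeR adjusted p = 0.327 over 55494 transcripts). Thra-004, which overlaps Nr1d1 by 130 bases, was at 4.46 ± 0.62 CPM in MNR litters and 3.66 ± 0.18 CPM in control litters (0.29, SE 0.10, adjusted p = 0.164). Thra-003, with no overlap, was at 8.76 ± 0.10 CPM in MNR litters and 8.37 ± 0.75 CPM in control litters (0.07, SE 0.07, adjusted p = 0.688). Among the 8 tested Thra transcripts the log2 fold changes ran between -0.49 (Thra-006) and 0.41 (Thra-007), with 7 of 8 positive and 0 past the threshold, as were 0 of all 44 tested transcripts of the 7 genes, against 0.575% of all transcripts (by DESeq2 1 of the 44, against 3.01%). Reads are not easily assigned among them, since 891 bases are common to the 4 longer coding transcripts and Thra-004 and Thra-201 have 0 bases of their own, against 720 in Thra-001 and 583 in Thra-003.

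The share of Thra counts that fell on transcripts overlapping Nr1d1 was 47.3%, 49.0%, 49.0%, 50.6% and 47.2% in MNR litters A to E, against 47.9%, 47.0%, 46.8%, 46.8% and 46.6% in control litters A to E. All MNR litters but A and E lay above every control litter. The mean share was 48.6% ± 1.39 in MNR litters and 47.0% ± 0.54 in control litters (SD, n = 5 each), a difference of 1.59 percentage points (two-sided exact permutation test, p = 0.0476; the 252 arrangements allow no p below 0.00794). It missed 0.05 without MNR litter B, C or D or control litter B, C, D or E, where p was 0.0635 to 0.0952. With all reads of the Nr1d1 gene spread evenly over Nr1d1-001, the overlap would hold 0.753 CPM in MNR litters and 0.135 CPM in control litters. That is a difference of 0.618 CPM beside the Thra difference of 3.10 CPM. These values are high for even coverage, since Nr1d1-002 and Nr1d1-201 lie outside the overlap. Nr1d1-001 alone was at 5.53 CPM in MNR litters and 1.01 CPM in control litters. Without the overlapping transcripts the log2 fold change of Thra was 0.12 (edgeR adjusted p = 0.321).

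**Figure D2:**
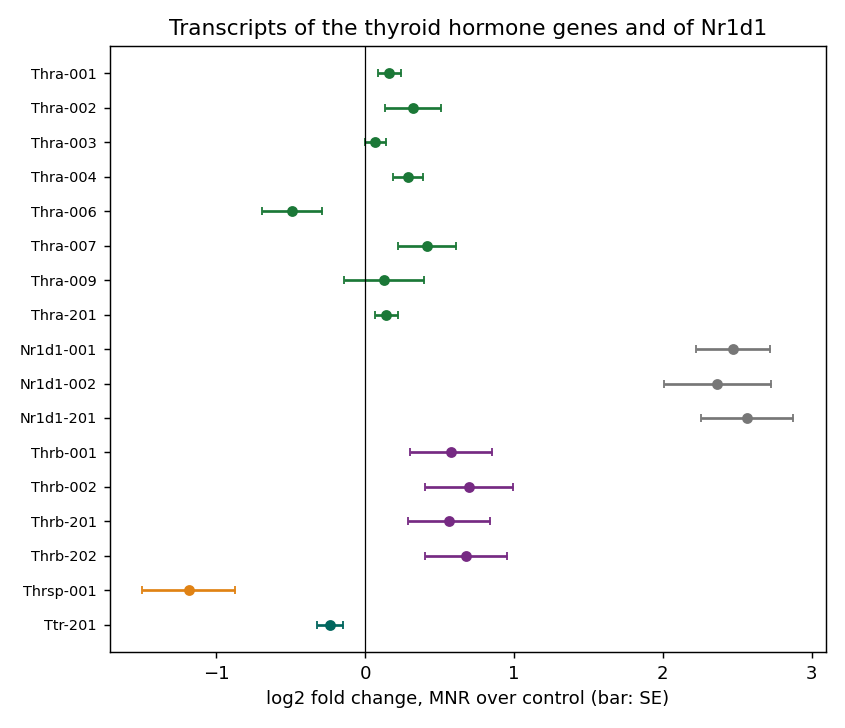
Log2 fold change of each tested transcript of Thra, Nr1d1, Thrb, Thrsp and Ttr, MNR over control, with SE as bars. The 3 Nr1d1 transcripts lie between 2.37 and 2.57, the 8 Thra transcripts between -0.49 and 0.41 and the 4 Thrb transcripts between 0.56 and 0.70.

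Thrb encodes TRβ, the receptor known as the main T3 receptor of adult liver, and is on chromosome 14 (18493474 to 18870602, plus strand, NCBIM37). It stood at 20.3, 49.4, 65.8, 25.4 and 66.8 CPM in MNR litters A to E, against 26.1, 37.1, 27.0, 25.04 and 31.9 CPM in control litters A to E. MNR litters B, C and E lay above every control litter, MNR litter A lay below every one, and MNR litter D lay among them. The means were 45.6 ± 21.9 CPM in MNR litters and 29.4 ± 5.05 CPM in control litters. The log2 fold change was 0.63 (SE 0.30, edgeR unadjusted p = 0.0556, adjusted p = 0.267), which did not pass. The coefficient of variation was 48.1% in MNR litters and 17.2% in control litters, a difference that was not tested.

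The spread of Thrb among MNR fetuses lay mostly between litters. The littermates of MNR litter A had 21.0 and 19.8 CPM, those of B 48.0 and 51.1 CPM, those of C 54.2 and 79.9 CPM, those of D 24.7 and 27.0 CPM and those of E 69.3 and 64.4 CPM. Control fetuses had 24.7 to 38.9 CPM. On the log2 scale the SD between litters was 0.80 in MNR litters and 0.24 in control litters, and the SD between littermates over both groups was 0.20. The most different littermates, those of control litter E, differed 1.57-fold, and the median pair 1.06-fold. The 4 Thrb transcripts had like values, with log2 fold changes of 0.56 to 0.70 and edgeR adjusted p-values of 0.240 to 0.330. They cannot count as separate measurements, since 3996 bases are common to all 4 and Thrb-002 has 0 bases of its own.

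By TPM on summed exon length, Thrb exceeded Thra in the same 3 MNR litters. That length is 4614 bases for Thra, whose longest transcript has 2452, and 6622 for Thrb, whose longest has 6081. The ratios are therefore high, and which receptor had more transcripts was not settled. Litters can be compared with each other, since the lengths are the same in all. The ratio of Thrb TPM to Thra TPM was 0.486, 1.11, 1.59, 0.582 and 1.67 in MNR litters A to E, against 0.697, 0.871, 0.737, 0.709 and 0.855 in control litters A to E. No control litter reached a ratio of 1, and MNR litters A and D had the lowest ratios of the 10.

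**Figure D3:**
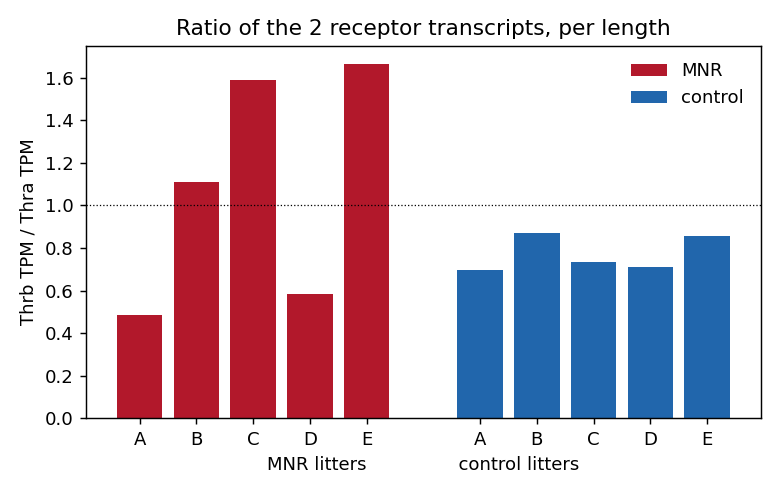
Ratio of Thrb TPM to Thra TPM in each litter, MNR litters at the left and control litters at the right, with a dotted line at a ratio of 1. TPM is on summed exon length, so the place of the ratios against this line depends on the length used. MNR litters B, C and E lie at 1.11 to 1.67 and the control litters at 0.697 to 0.871.

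The promoter windows of Thrb and Thrsp, the 2 tested genes whose levels varied most between litters, are shown because the first holds a single AGGTCA and the second does not. Whether either window responds to the hormone was not tested. Promoter sequences (250 bases before to 50 after the start, RefSeq, GRCm38.p6) were available for 5 of the 7 genes and were searched on both strands for AGGTCA, the core bound by many nuclear receptors. Capitals mark the match in Thrb, which begins 184 bases before the start. The windows are chr14:17660710-17661009 on the plus strand for Thrb and chr7:97417501-97417800 on the minus strand for Thrsp.

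Thrb promoter: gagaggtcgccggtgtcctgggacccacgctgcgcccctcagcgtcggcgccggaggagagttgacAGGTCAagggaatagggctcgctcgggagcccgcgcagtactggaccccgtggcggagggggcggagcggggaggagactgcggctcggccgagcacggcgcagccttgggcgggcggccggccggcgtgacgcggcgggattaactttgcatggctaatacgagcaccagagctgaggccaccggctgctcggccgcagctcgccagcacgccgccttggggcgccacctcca
Thrsp promoter: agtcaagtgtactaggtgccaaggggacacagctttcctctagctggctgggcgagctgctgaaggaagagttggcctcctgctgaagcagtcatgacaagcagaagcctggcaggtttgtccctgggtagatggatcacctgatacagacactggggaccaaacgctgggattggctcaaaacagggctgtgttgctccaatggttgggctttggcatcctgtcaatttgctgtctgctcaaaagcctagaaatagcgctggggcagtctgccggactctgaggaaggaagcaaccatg

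The second Thrb promoter and those of Dio1, Dio3, Thrsp and Ncor1 held no match in this window. Of all 32851 promoter windows 16.3% held the core on either strand, so a match in 1 of the 5 genes was near that share, and 5 windows, none of these genes among them, held 2 cores as a direct repeat spaced by 4 bases. Enhancers outside these windows were not searched.

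Retinoid X receptors pair with the thyroid hormone receptors. Rxra, the main one in liver, was at 265, 266, 263, 245 and 266 CPM in MNR litters A to E, against 209, 244, 225, 194 and 220 CPM in control litters A to E. The lowest MNR litter, D at 244.9 CPM, lay just above the highest control litter, B at 243.9 CPM. Of all tested genes 4.5% have groups that do not overlap. The means were 261 ± 9.06 CPM in MNR litters and 219 ± 18.6 CPM in control litters (log2 fold change 0.26, SE 0.07). This did not pass by edgeR (adjusted p = 0.0785). It passed by DESeq2 (adjusted p = 0.0057, against 6.62% of all genes) and limma-voom (adjusted p = 0.0074, against 6.74%).

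The deiodinase genes had few reads, and Dio1 was close to the limit of detection. Dio1, on chromosome 4 (106964070 to 106979774, minus strand, NCBIM37), encodes the type 1 enzyme, which is abundant in adult liver. It had 1, 3, 5, 1 and 5 reads in MNR litters A to E, against 5, 2, 1, 2 and 2 reads in control litters A to E. That is 15 reads in 8 of 10 MNR fetuses and 12 reads in 7 of 10 control fetuses, or 0.0731 CPM (exact Poisson 95% interval 0.0409 to 0.120) in the summed MNR group and 0.0576 CPM (0.0297 to 0.101) in the summed control group. The intervals overlap and cover counting error only. A count of 3, the upper limit that a count of 0 would allow, corresponds to 0.0614 CPM in the deepest litter, so Dio1 was near that limit in most litters and a difference was not detectable at this depth.

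Dio3, on chromosome 12 (111517278 to 111519307, plus strand, NCBIM37), encodes the inactivating enzyme and is an imprinted gene known for high activity in placenta and fetal tissues. It had 12, 9, 7, 6 and 7 reads in MNR litters A to E, against 6, 16, 4, 19 and 15 reads in control litters A to E. The control litters spanned the MNR litters on both sides. The summed groups had 41 reads in 8 MNR fetuses and 60 reads in 10 control fetuses, or 0.200 CPM (exact Poisson 95% interval 0.143 to 0.271) in the MNR group and 0.288 CPM (0.220 to 0.370) in the control group, with intervals that overlap. Dio2, the other activating deiodinase, was at 0.743 ± 0.160 CPM in MNR litters and 0.737 ± 0.078 CPM in control litters (log2 fold change 0.02, SE 0.17, edgeR adjusted p = 0.962).

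Ttr lies on chromosome 18 (20823751 to 20832825, plus strand, NCBIM37) and encodes transthyretin, which carries T4 and, with retinol-binding protein, vitamin A. It stood at 2401, 2347, 2396, 2732 and 2465 CPM in MNR litters A to E, against 3182, 2508, 2853, 2967 and 2943 CPM in control litters A to E. All MNR litters but D lay below every control litter, and control litter B, the lowest, lay among the MNR litters. The means were 2468 ± 153 CPM in MNR litters and 2890 ± 246 CPM in control litters, a log2 fold change of -0.23 (SE 0.08). This did not pass by edgeR (adjusted p = 0.142) and passed by DESeq2 (adjusted p = 0.0296) and limma-voom (adjusted p = 0.0306). The exons of Ttr share 11 bases with the opposite-strand gene Gm16090 and none with any other gene.

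Ncor1 encodes the corepressor through which unliganded receptors silence their targets, and is on chromosome 11 (62129928 to 62272043, minus strand, NCBIM37). It was at 134, 126, 131, 116 and 124 CPM in MNR litters A to E, against 119, 115, 109, 111 and 122 CPM in control litters A to E. All MNR litters but D lay above every control litter. The means were 126 ± 7.05 CPM in MNR litters and 115 ± 5.44 CPM in control litters (log2 fold change 0.13, SE 0.06, edgeR adjusted p = 0.231). All 30 Ncor1 transcripts were tested, 27 had a positive log2 fold change and 0 passed, with adjusted p-values of 0.211 to 0.957. Ncor1-001 was at 13.4 ± 0.73 CPM in MNR litters and 11.9 ± 0.49 CPM in control litters without overlap of the groups, which 3.53% of all transcripts shared. The exons of Ncor1 share 88 bases in all with the opposite-strand genes Ttc19 and Pigl.

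Thrsp, on chromosome 7 (104561448 to 104566240, minus strand, NCBIM37), had the largest fold difference of the 5 tested genes. It was at 4.57, 2.87, 3.37, 4.95 and 9.68 CPM in MNR litters A to E, against 12.1, 12.03, 18.6, 6.87 and 7.76 CPM in control litters A to E. All MNR litters but E lay below every control litter. The means were 5.09 ± 2.70 CPM in MNR litters and 11.5 ± 4.64 CPM in control litters, a log2 fold change of -1.17 (SE 0.34). This did not pass by edgeR (adjusted p = 0.0991) or limma-voom and passed by DESeq2 (adjusted p = 0.0466). Of all tested genes 0.677% had an absolute log2 fold change of at least 1.

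Littermates lay further apart in Thrsp than in either receptor. The fetuses had 1.88 and 7.22 CPM in MNR litter A, 2.15 and 3.49 in B, 4.30 and 2.15 in C, 4.59 and 5.64 in D, and 11.2 and 8.24 in E. Control fetuses had 3.92 and 17.1 CPM in litter A, 4.54 and 18.4 in B, 25.04 and 13.2 in C, 5.94 and 8.09 in D, and 6.70 and 8.74 in E. The SD between littermates on the log2 scale was 0.88, against 0.70 between MNR litters and 0.57 between control litters, and the littermates of control litter A differed 4.37-fold. The paralog Mid1ip1 (Spot 14-related), which acts with Thrsp on fatty acid synthesis, was at 20.3 ± 5.92 CPM in MNR litters and 30.5 ± 6.80 CPM in control litters (log2 fold change -0.59, SE 0.19, edgeR adjusted p = 0.126). It passed by DESeq2 (adjusted p = 0.0357) and limma-voom (adjusted p = 0.0189).

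The wider set of thyroid hormone genes was also chosen with earlier results of these data known, so its counts are a description. It held 68 genes, the 7 included, of which 64 were tested. Of these, 2 passed, both lower in MNR litters and both from the list of targets, against 0.666% of all genes. An unadjusted p under 0.05 was found for 28, with 17 higher and 11 lower, against 9.95% and 9.69% of all genes. The median log2 fold change was 0.10 beside a median of -0.0027 over all genes, of which 8676 of 17573 had a positive value. By DESeq2 15 of the 64 passed, 8 of them higher in MNR litters, against 6.62% of all genes. By limma-voom likewise 15 passed, of which 8 were higher, against 6.74% of all genes.

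Among the 21 tested genes of the target list, 10 had a positive log2 fold change and the median was -0.04. Whether the hormone raises or lowers each of them in fetal liver was not tested. Fasn, the fatty acid synthase, was at 115, 72.7, 129.5, 168 and 111 CPM in MNR litters A to E, against 287, 183, 322, 314 and 239 CPM in control litters A to E. The groups did not overlap (means 119 ± 34.5 CPM in MNR litters and 269 ± 58.3 CPM in control litters, log2 fold change -1.17, SE 0.21, edgeR adjusted p = 0.0374). Srebf1, whose product drives lipogenic genes, was at 93.7, 85.4, 105, 146 and 115 CPM in MNR litters A to E, against 187, 148, 197, 189 and 171 CPM in control litters A to E. These groups did not overlap either (109 ± 23.7 CPM in MNR litters and 178 ± 19.7 CPM in control litters, -0.71, SE 0.13, adjusted p = 0.0436). The margin of Srebf1 was small, with MNR litter D at 146.4 CPM and control litter B at 147.7 CPM. Of all tested genes 4.5% have groups that do not overlap. Both calls were lost without control litter A, C, D or E or MNR litter A, B, C or E, with edgeR adjusted p-values of 0.0608 to 0.119. In these fits between 0 and 30 of all genes passed, and log2 fold changes were -1.04 to -1.21 for Fasn and -0.63 to -0.73 for Srebf1. Both calls were also lost with fetus 1 of each litter alone (edgeR adjusted p = 0.312 for both), where 0 of all genes passed. With fetus 2 of each litter alone both held, with log2 fold changes of -1.35 for Fasn (edgeR adjusted p = 0.0026) and -0.75 for Srebf1 (adjusted p = 0.0041). With the erythroid level as a covariate Srebf1 had an adjusted p of 0.0511 at a log2 fold change of -0.70, close to the -0.71 without it.

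The other targets lay on both sides of 0. Acly, which makes cytosolic acetyl-CoA for lipid synthesis, was at 123 ± 5.36 CPM in MNR litters and 215 ± 63.3 CPM in control litters (log2 fold change -0.81, edgeR adjusted p = 0.0587). Gadd45b, a growth arrest and DNA damage response gene, was at 19.4 ± 3.36 CPM in MNR litters and 11.8 ± 2.79 CPM in control litters (0.72, adjusted p = 0.0587). Acly passed by DESeq2 (adjusted p = 0.00096) and limma-voom (adjusted p = 0.0146), and Gadd45b by DESeq2 (adjusted p = 0.0017) and not by limma-voom (adjusted p = 0.0629). Of the targets with an unadjusted p under 0.05, 4 were higher and 9 lower in MNR litters, among 21 tested, against 9.95% and 9.69% of all genes.

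The remaining roles had 0 genes past the threshold by edgeR. Their counts stand beside 8676 of 17573 genes with a positive log2 fold change and 19.6% with an unadjusted p under 0.05. All 4 tested receptors and partners had a log2 fold change above 0 (median 0.21), and 3 had an unadjusted p under 0.05. Of 10 coactivators 9 were positive, with a median of 0.17 and 6 at an unadjusted p under 0.05. Crebbp, a histone acetyltransferase, was at 35.7 ± 2.88 CPM in MNR litters and 29.6 ± 2.02 CPM in control litters (0.27, edgeR adjusted p = 0.0731). Ppargc1a, the coactivator PGC-1α of fasting metabolism, was at 30.9 ± 7.25 CPM in MNR litters and 17.9 ± 5.48 CPM in control litters (0.78, adjusted p = 0.0904). Both passed by DESeq2 (adjusted p = 0.0107 for Crebbp and 0.0101 for Ppargc1a) and by limma-voom (adjusted p = 0.0097 for Crebbp and 0.0230 for Ppargc1a).

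Corepressors had 5 of 7 values above 0 (median 0.05) and 1 unadjusted p under 0.05, and Gps2, a subunit of the NCoR complex, was at 22.8 ± 1.33 CPM in MNR litters and 25.5 ± 3.68 CPM in control litters (-0.16, edgeR adjusted p = 0.381). Deiodinases and selenium genes had 4 of 6 positive with a median of 0.06. Sepp1, the plasma selenium carrier, was at 5530 ± 165 CPM in MNR litters and 4877 ± 404 CPM in control litters (0.18, adjusted p = 0.209), and Sephs2, which makes the selenium donor, at 391 ± 35.0 CPM in MNR litters and 355 ± 35.3 CPM in control litters (0.14, adjusted p = 0.391).

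Transporters had 4 of 7 positive with a median of 0.10. Slc7a5, an amino acid transporter that also takes up thyroid hormone, was at 41.6 ± 2.74 CPM in MNR litters and 52.9 ± 9.73 CPM in control litters (-0.35, edgeR adjusted p = 0.123). Binding and disposal genes had 7 of 9 positive with a median of 0.20, and Iyd, which recovers iodide, was at 36.0 ± 2.99 CPM in MNR litters and 31.4 ± 2.19 CPM in control litters (0.20, adjusted p = 0.149).

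**Figure D4:**
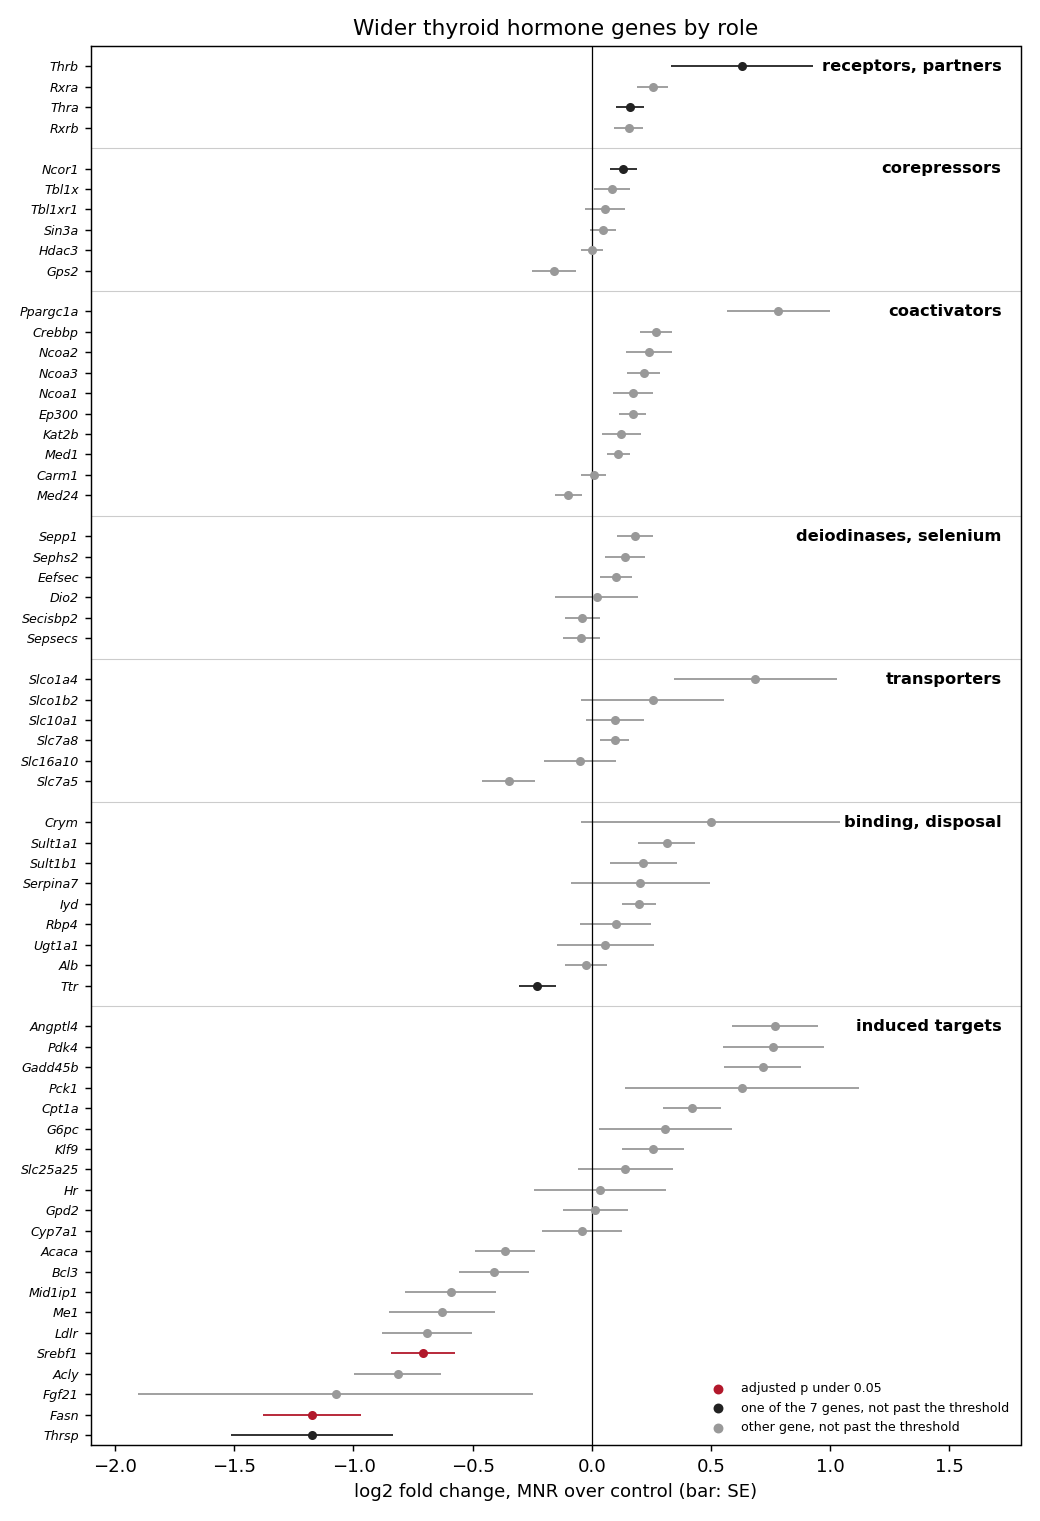
Log2 fold change, MNR over control, of the tested thyroid hormone genes grouped by role, with SE as bars and 2 of the 64 not shown. Fasn and Srebf1, in red, are the 2 genes past the threshold, and Thrsp lies beside Fasn at -1.17 with a wider SE. The group labelled induced targets is the target list of the text, whose response to the hormone was not tested.

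The genes whose litter-to-litter pattern was most like that of each member were ranked by Pearson correlation of log2 CPM over 10 litters, after each group was centred on its own mean, among 12268 genes. With so many genes and 10 litters of shared scaling, correlations of this size arise for many genes, and they are given as a description. For Thrb they were Atp8b1 (r = 0.93, Spearman 0.96, and 0.86 without the 2 litters farthest from the median of Thrb) and Ddx60 (r = 0.91, 0.94 and 0.81), and 6 genes had an absolute r over 0.9. For Thra they were Nlrp3 (r = 0.93, 0.82 and 0.82) and Pnkd (r = 0.93, 0.95 and 0.90). For Thrsp they were Mcfd2 (r = 0.95, 0.88 and 0.85) and Soat2 (r = 0.94, 0.93 and 0.82). For Ttr they were Pisd (r = 0.97, 0.99 and 0.91) and Scaf8 (r = 0.96, 0.87 and 0.91), and for Ncor1 Dnajc13 (r = 0.93, 0.82 and 0.84) and Taz (r = 0.92, 0.93 and 0.87). All 10 of these genes had edgeR adjusted p-values of 0.175 to 0.982 between the groups.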

How the data were processed

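Per the labels' protocols, frozen right liver lobe was ground, RNA was purified with TRIzol and a column with DNase treatment, and polyadenylated RNA libraries were made with a strand-preserving kit. The deposited values are whole-number counts per transcript, not normalised, in 1 list per fetus. The submitters' processing notes name FastQC, Bowtie2, DESeq2, edgeR and mm9. Which tool counted reads, whether strand was used and how multiply mapping reads were handled is not stated in the sources used here. A gene table of the whole series was not used.

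Transcripts were summed to genes with GENCODE annotation of NCBIM37. Unmatched transcripts, 0.0788% to 0.154% of the counts of a fetus, were left out. Depth per fetus was 14925778 to 28016953 counts (median 19658940). Littermates were summed. In edgeR 4.0.16 (R 4.3.3), filterByExpr with a minimum count of 10 chose the genes, TMM scaled the litters and the two-sided quasi-likelihood test was run, with Benjamini-Hochberg adjustment over all genes or all transcripts and a threshold of 0.05. An SE is the absolute log2 fold change over the square root of F. Log2 CPM for correlations used a prior count of 2 and genes of at least 1 CPM on average. TPM divides litter counts by union exon length. Exact Poisson intervals (95%) and permutations used scipy 1.17.1.

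The members and gene lists were chosen with earlier results of these data known. Named were the 7 genes, Nr1d1, Dio2, Rxra and Mid1ip1, list genes past the threshold and the 2 others of smallest p per list, and the 2 genes most like each member. Of the genes this rule names, 2 are not reported here. All 7 genes and all 68 of the wider list were matched by symbol, and of the cell type markers 2 (Tf and Pnlip) were not. On simulated counts of 17573 genes, each drawn independently, the edgeR test found 93 of 100 changes of 2-fold and 65 of 100 of 1.5-fold. Of its 169 calls 11 were false. On 55494 simulated transcripts it found 96 of 100 and 59 of 100, with 4 false among 159 calls. Alternatives were other scalings and filters, DESeq2 1.42.0, limma-voom (limma 3.58.1), 1 fetus per litter, a block on litter letter, an erythroid covariate, and omission of litters or of fetuses with acinar transcripts.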

Additional observations from a re-analysis of the deposited data

Results flagged for a closer look

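Control litter B stood apart from the other control litters in Thra, at 29.7 CPM against 24.6 to 26.1 CPM in the others. The gap to its nearest neighbour was 0.714 of the range of the group. Chance marks about 1 in 20 groups in this way.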

How the results depend on the processing

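Of 116 values of the 5 tested genes under alternatives, 112 kept their direction and side of the threshold, 4 came to pass it and 0 reversed. The 4 were Thrsp and Ttr by DESeq2, Ttr by limma-voom and Thra without control litter B. The number of genes past the threshold, 117, became 178 with upper-quartile scaling, 1163 with DESeq2, 1088 with limma-voom, 0 with fetus 1 of each litter alone (1699 at an unadjusted p under 0.05), 499 with fetus 2 alone, 301 without the 2 fetuses highest in acinar transcripts, and 215 without 3 such fetuses, an alternative chosen after seeing the data. It ran between 0 and 843 as single litters were left out. The number of the 5 members that passed, 0, became 2 with DESeq2 and 1 with limma-voom, and ran between 0 and 1 as litters were left out. Of the wider list 2 genes passed, against 15 with DESeq2 and 15 with limma-voom (8 of each higher in MNR litters). Of all genes 6.62% passed with DESeq2 and 6.74% with limma-voom. The list had 0 with fetus 1 alone and 8 with fetus 2 alone (499 of 16182 genes). It had 1 with the erythroid level as a covariate (139 of 17573) and 6 without fetuses high in acinar transcripts (301 of 17538). It had between 0 and 10 as litters were left out. Of all transcripts 319 passed, against 1669 with DESeq2, and of the 44 member transcripts 0 passed, against 1 with DESeq2. The difference in the Thra share ran between 1.10 and 1.94 points as litters were left out. Dio2 took the other sign with upper-quartile scaling (-0.0092), with fetus 2 alone (-0.11) and without control litter B or MNR litter C or D (range over omitted litters -0.055 to 0.13). The causes were not tested.

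Litter letters do not pair dams, and an MNR litter correlated best with the control litter of its own letter in 2 of 5 cases. With the litter letter as a replicate block, 232 of 17573 genes and 5 of the wider list passed, and the calls of the members did not change. With this block the SE went from 0.27 to 0.12 for Nr1d1 and from 0.21 to 0.08 for Fasn, but from 0.34 to 0.38 for Thrsp. Gadd45b came to pass (edgeR adjusted p = 0.0107). An effect shared by litters of the same letter was not tested.

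With 5 litters a group, simulated 1.5-fold changes were recovered in 65 of 100 genes taken at random. That share does not give the recovery for Thra, Ttr or Ncor1, whose SEs were 0.06, 0.08 and 0.06 and whose differences were smaller than 1.5-fold. Depth limits Dio1 and Dio3, and unstated use of strand limits Thra and touches 11 bases of Ttr and 88 of Ncor1.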
